A study of Homo sapiens with 5 samples.

Results

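Transcripts of the RNF and TRIM ubiquitin ligase genes were compared between a miR-182 pull-down and mock-transfected HEK293T cells, an immortal line of human embryonic kidney origin with the SV40 large T antigen. The genes were taken by name: every gene of the deposited table whose current symbol is RNF or TRIM followed by a number and at most 1 letter. This name rule was itself chosen with earlier results of these data known. The rule gave 73 of the 8127 genes with a named probe, 48 RNF and 25 TRIM genes. RefSeq lists 157 protein-coding genes with such symbols, and the other 84 were not analysed here. The pull-down group (2 arrays) came from cells transfected with 200 pmol of a biotin-labelled miR-182-5p duplex, and the mock group (3 arrays) from the same line with "mock" as the transfected molecule and "none" in the pull-down field of the labels. Cells were harvested after 24 h, and for the pull-down the biotin tag was captured on streptavidin beads, with whatever the microRNA held, before the RNA was labelled for Illumina expression arrays. The bead protocol is attached to the mock samples too, so whether mock RNA passed over beads is not settled, and the bead isolation and the microRNA cannot be told apart in this comparison.

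RNF genes are named for the RING finger, a zinc-binding fold that brings a ubiquitin-loaded conjugating enzyme (E2) to a substrate. Most TRIM genes, but not all, encode a RING followed by B-box and coiled-coil segments. The name alone does not show that a member is a ligase. Ubiquitin passes from an activating enzyme (E1) to an E2 and, with the help of a ligase (E3), to the substrate, where it marks the protein for degradation or changes its partners. Several family members act at broken DNA or on chromatin, others sit in cell membranes, and many TRIM proteins take part in antiviral sensing. A microRNA in an Argonaute protein pairs with transcripts mainly through its seed, bases 2 to 8 from the 5′ end, so transcripts bound by a tagged microRNA are enriched when the tag is pulled down.

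The bait is shown here because its seed sets which transcripts it can pair with, beside the other microRNAs of its genomic cluster. Mature sequences are from RefSeq (GRCh38.p14), 5′ to 3′, with the seed in capitals.
miR-182-5p: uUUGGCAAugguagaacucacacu
miR-96-5p: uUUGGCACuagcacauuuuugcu
miR-183-5p: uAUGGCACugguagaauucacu
The miR-182-5p sequence of 24 bases lies on the minus strand at chr7:129770447-129770470. Among 2370 mature human microRNA names in that table, 1 has this seed, miR-182-5p itself, and 3 have its bases 2 to 7, miR-182-5p included. The seed of miR-96-5p differs from that of miR-182-5p at 1 position and that of miR-183-5p at 2. Transcript sequences were not used here, so sites for the seed (TTGCCAA in a transcript written as DNA) were not counted in the RNF and TRIM transcripts.

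Values are the authors' deposited log2 values, which start near 8, and every difference is pull-down minus mock. Array medians over all probes were 8.72 to 8.81, and arrays correlated across probes with r = 0.978 within the pull-down, 0.980 to 0.987 within the mock and 0.885 to 0.904 between the groups. The share of probes at the lower limit, taken as within 0.1 of an array's minimum, was 14.9% to 15.4% per pull-down array and 19.9% to 26.7% per mock array. Of the 6 HEK293T marker genes chosen, VIM (mean 13.47) and CDH2 (11.74) were well above the lower limit. KRT8 (8.36), KRT18 (8.06) and NEFL (8.19) were near it, and NEFM was at 8.94 in the pull-down and 8.87 in the mock. CDH2 was itself called lower in the pull-down, at 11.17 against 12.12 (limma, Benjamini-Hochberg adjusted p = 0.00438). COL1A1 was the 1 measured gene of the fibroblast list, at 8.03, and the blood cell and hepatocyte lists had 0 measured genes. The arrays measured bulk RNA, so fewer cells holding a transcript and less of it per cell cannot be told apart. Nothing in the labels ties the arrays to separate cultures, and the p-values therefore measure only the spread between these samples, which may be technical.

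Most RNF and TRIM transcripts that changed were higher in the pull-down. Of the 73 genes, 21 (28.8%) were higher and 3 (4.11%) lower, and 49 did not pass (limma, called at a p under 0.05 after Benjamini-Hochberg adjustment over all genes). Over all 8127 genes, 20.2% were higher and 15% lower by the same rule. The median difference was 0.11 in the RNF and TRIM genes and 0.02 over all genes, and after quantile normalization 0.03 and -0.003. The leading gene was RNF138, a ligase of homologous recombination, at 3.44-fold. RNF216, RNF181, TRIM24 and TRIM33 were also more than 2-fold higher, so that 5 of 73 were called and at least 2-fold higher (5.28% of all genes) and 0 of 73 called and at least 2-fold lower (5.12% of all genes). RNF8, an early ligase at DNA breaks, was the largest lower call, at 1.43-fold. These are counts for 1 list, and no test of the list against other genes was made.

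**Figure D1:**
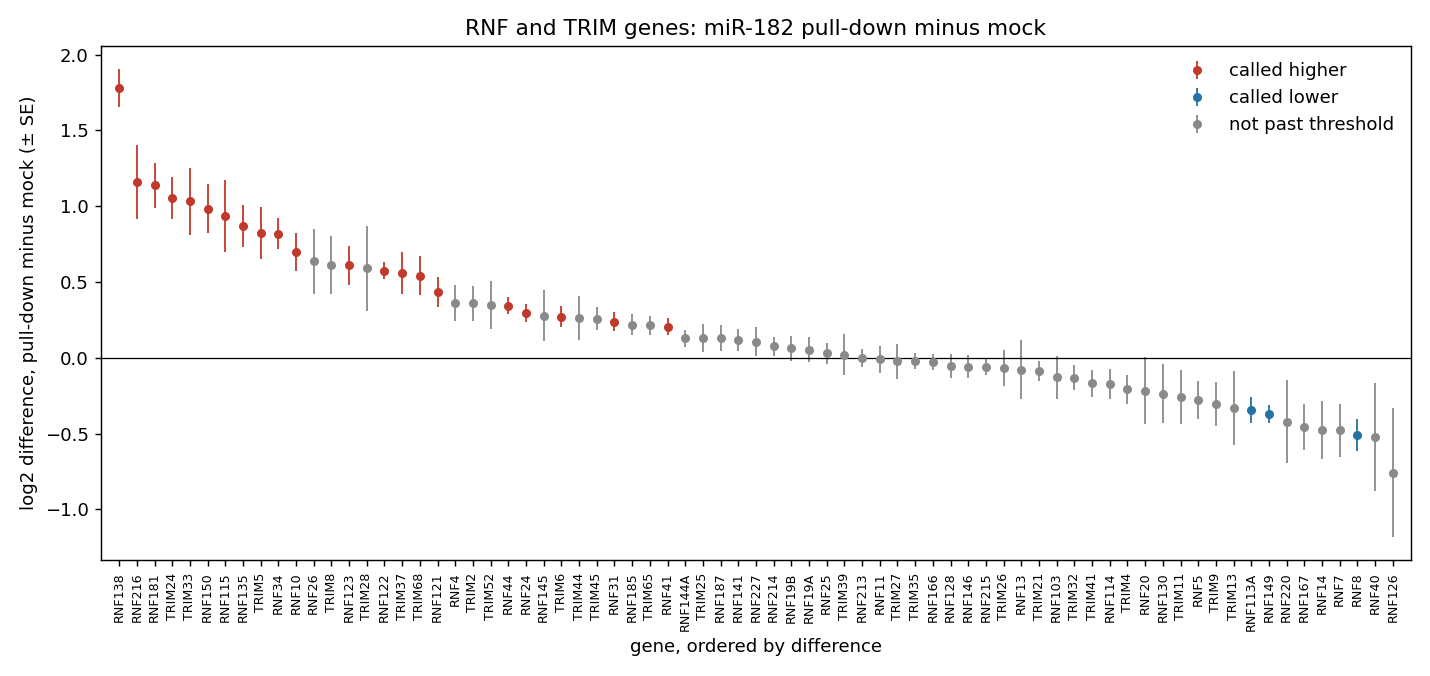
Log2 difference, pull-down minus mock (y axis, points with SE bars from limma), for each of the 73 RNF and TRIM genes (x axis, ordered by difference). RNF138 at 1.78 stands above the rest, 21 genes are called higher (red), 3 lower (blue), and the lowest point, RNF126 at -0.76, did not pass.

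The pull-down and mock arrays did not overlap for 47 of the 73 genes: the pull-down was above the mock in 32 genes (35% of all genes had this order) and below it in 15 (30.1% of all genes). In 23 of these the test was not passed, and in the other 26 genes the arrays overlapped. By call, 20.2% of all genes were higher and 15% lower. RNF genes had 15 higher and 3 lower calls of 48, with a median difference of 0.07. TRIM genes had 6 higher and 0 lower calls of 25, with a median of 0.21. At an unadjusted limma p under 0.05 in either direction there were 33 of the 73 genes, beside 46.6% of all genes. These were 23 of 48 RNF genes and 10 of 25 TRIM genes. After quantile normalization the RNF and TRIM medians were 0.0006 and 0.14. Whether RNF and TRIM genes differed from each other was not tested. With 1 array left out in turn, 10 (without pull-down array 1) to 15 (without mock array 3) RNF and TRIM genes were higher and 1 to 3 lower, while the share of all genes that were higher was 11.8% and 17% in those 2 fits. Over all genes, 7.85% to 14.8% were lower in the 5 fits. Not all of these were calls of the full fit. Without mock array 1 or 2 the 1 lower call was RNF149. Without mock array 3 the 3 lower calls were RNF149 and the newly called RNF126 and RNF220. Of the 15 higher calls there, 2 were new, RNF26 and TRIM28. Without pull-down array 1 each of the 3 lower calls of the full fit was lost, and RNF14 was called lower instead. Without pull-down array 2 the lower call was RNF8. TRIM genes had 2 higher calls without pull-down array 1.

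**Figure D2:**
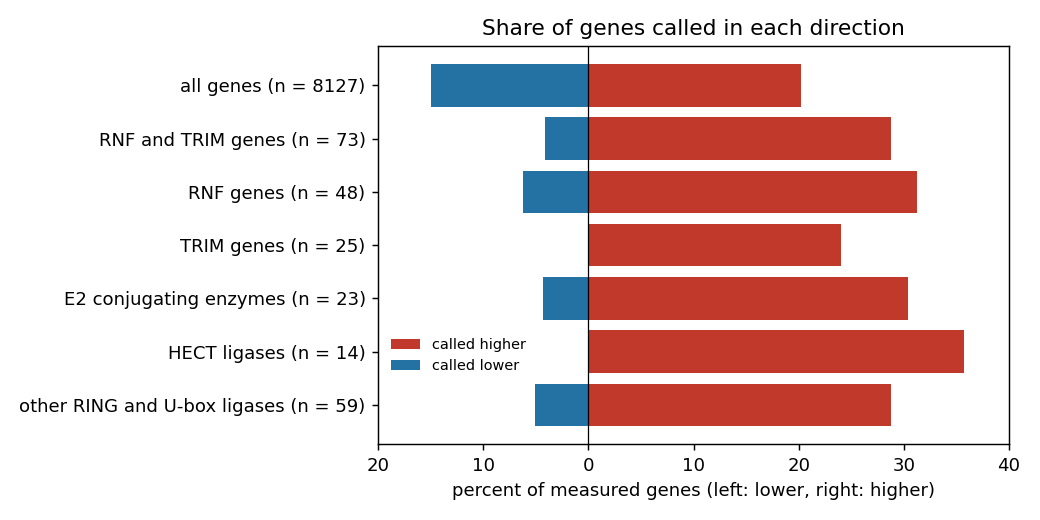
Percent of measured genes called higher (red, to the right) and lower (blue, to the left) by limma at an adjusted p under 0.05, for all genes, the RNF and TRIM genes and 3 other lists of the ubiquitin pathway, with the number of genes measured. Each of the ligase and E2 lists has a longer bar to the right and a shorter one to the left than all genes. The list of E1 and ubiquitin genes, with 0 higher and 2 lower of 3 measured, is not drawn.

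RNF138 was at 11.48 and 11.22 in pull-down arrays 1 and 2 and at 9.44, 9.56 and 9.70 in mock arrays 1, 2 and 3. Both pull-down arrays were far above every mock array. Its difference was 1.78 (SE 0.12, limma, Benjamini-Hochberg adjusted p = 0.00308). RNF138 acts on proteins that hold or trim DNA ends, favouring repair by homologous recombination. RefSeq lists 2 pseudogenes under its name, and its single probe could share signal with them.

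RNF216 was at 9.78 and 10.16 in the pull-down and 8.95, 9.07 and 8.41 in the mock, a difference of 1.16 (SE 0.24). The groups did not overlap, but mock array 3 was well below the other mock arrays. RNF216 is a RING-between-RING ligase, a class that first takes ubiquitin onto itself, and it also has a pseudogene. Its call was lost without pull-down array 1 (limma, Benjamini-Hochberg adjusted p = 0.0673), pull-down array 2 (0.115) or mock array 1 (0.0638). RNF181, a small RING ligase, was at 11.71 and 11.49 against 10.24, 10.51 and 10.64, a difference of 1.14 (SE 0.15). Its groups were well apart.

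The related chromatin proteins TRIM24 and TRIM33, both of the TIF1 family of transcription cofactors, were higher by similar amounts. TRIM24, which also binds p53, was at 10.10 and 10.24 in the pull-down and 9.33, 8.93 and 9.09 in the mock, a difference of 1.05 (SE 0.14). Its second probe gave 0.50 (SE 0.11). Neither probe had overlapping groups. TRIM33, which acts in TGF-beta and SMAD4 signalling, was at 11.62 and 11.14 against 10.64, 10.13 and 10.28, a difference of 1.03 (SE 0.22), and its second probe gave 0.59 (SE 0.17). The TRIM33 call was lost without pull-down array 1 (limma, Benjamini-Hochberg adjusted p = 0.106), mock array 2 (0.0743) or mock array 3 (0.0633).

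RNF150, a membrane-anchored ligase, was at 9.34 and 8.92 in the pull-down and 8.31, 8.07 and 8.06 in the mock, a difference of 0.98 (SE 0.16). Mock arrays 2 and 3 were at the lower limit, which may compress the difference. The adjusted p was 0.0513 without mock array 2 (limma, Benjamini-Hochberg). RNF115, a cytosolic ligase linked to vesicle traffic, was at 11.01 and 10.28 against 9.85, 9.65 and 9.62. Its pull-down arrays were far apart, so its difference of 0.94 (SE 0.24) was among the less precise, at 1.30 without pull-down array 2 and 0.57 without pull-down array 1. That call was lost without pull-down array 1 or any 1 of the 3 mock arrays (limma, Benjamini-Hochberg adjusted p of 0.0633 to 0.115).

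RNF135, the ligase that activates the viral RNA sensor RIG-I, was at 9.31 and 8.90 in the pull-down and 8.23, 8.19 and 8.29 in the mock. The mock arrays were tightly grouped and the difference was 0.87 (SE 0.14). TRIM5, which binds retroviral capsids, was at 8.69 and 9.20 against 8.21, 8.07 and 8.09. Its difference of 0.82 (SE 0.17) came from 1 probe, since the other, near the lower limit, gave 0.05 (SE 0.07). The TRIM5 call was lost without any 1 of the mock arrays (limma, Benjamini-Hochberg adjusted p of 0.0573 to 0.078). RNF34, a ligase reported to act on caspases and p53, was at 10.82 and 10.91 against 9.93, 9.999 and 10.20, a difference of 0.82 (SE 0.10) with arrays well apart.

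**Figure D3:**
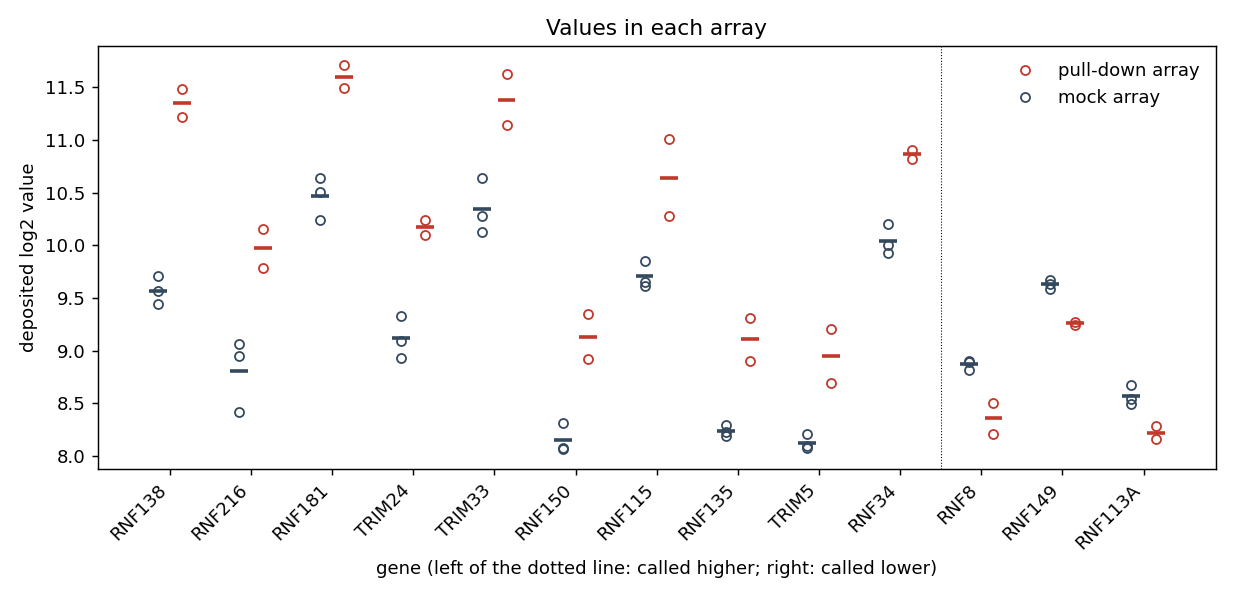
Deposited log2 value (y axis) in each pull-down array (red) and mock array (dark) for the 10 RNF and TRIM genes with the largest higher calls and the 3 called lower, with a bar at each group mean. The groups do not overlap for any of the 13 genes, and the gap is widest for RNF138 (means 11.35 and 9.57).

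The 3 lower calls were small. RNF8, which ubiquitylates chromatin at DNA breaks and so prepares it for repair factors, was at 8.21 and 8.50 in the pull-down and 8.81, 8.89 and 8.90 in the mock. Its difference was -0.51 (SE 0.11, limma, Benjamini-Hochberg adjusted p = 0.0235), with both pull-down arrays below all mock arrays. The call held without pull-down array 2 (adjusted p = 0.0242, limma, Benjamini-Hochberg) and was lost without pull-down array 1 or any 1 of the mock arrays (0.0585 to 0.0771). RNF149, a membrane-anchored ligase, was at 9.27 and 9.24 against 9.67, 9.58 and 9.63, a difference of -0.37 (SE 0.06). Its other probe gave -0.01 (SE 0.06) near the lower limit, and the call was lost without pull-down array 1 or pull-down array 2. RNF113A, a splicing-associated ligase that also takes part in the repair of alkylated DNA, was at 8.28 and 8.16 against 8.54, 8.67 and 8.49, a difference of -0.35 (SE 0.08). The RNF113A call was lost without any 1 of the 5 arrays (limma, Benjamini-Hochberg adjusted p of 0.0514 to 0.149).

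Members that act on chromatin or at DNA damage were split. Over all genes, 20.2% were higher and 15% lower. Of the 8 members measured, RNF138, TRIM24 and TRIM33 were higher, RNF8 was lower and 4 did not pass, with a median difference of 0.48. Among the 4 was TRIM28, the corepressor recruited by KRAB zinc finger proteins, at 10.59 and 11.01 in the pull-down and 9.91, 10.06 and 10.68 in the mock. Mock array 3 lay between the pull-down arrays, and the difference of 0.59 had a 95% interval of -0.15 to 1.33. Without mock array 3 it was 0.82 (limma, Benjamini-Hochberg adjusted p = 0.0400). RNF4, which recognises SUMO-modified proteins, had a difference of 0.36 (interval 0.05 to 0.67, limma, Benjamini-Hochberg adjusted p = 0.0767), with non-overlapping arrays, and with its probes averaged it was called at 0.24 (limma, Benjamini-Hochberg adjusted p = 0.0384).

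RNF20 and RNF40 form a heterodimer that ubiquitylates a core histone during transcription, and neither passed. RNF20 was at 9.13 and 9.28 against 9.51, 9.04 and 9.72, a difference of -0.22 with an interval of -0.80 to 0.36. RNF40 was at 9.94 and 9.80 against 9.87, 10.31 and 11.01, a difference of -0.52 with an interval of -1.46 to 0.41. For both genes the mock arrays were spread over more than the distance between the group means, and these intervals leave room for a change in either direction.

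The RING-between-RING ligases had 2 of 6 members higher, RNF216 and RNF31, and 0 lower (20.2% and 15% of all genes), with a median of 0.10. RNF31, the catalytic subunit of the complex that builds linear ubiquitin chains, had a difference of 0.24 (SE 0.07) close to the lower limit, and its call was lost without any 1 of the 5 arrays. Neither gene was called without mock array 1, nor without pull-down array 1 or 2. RNF14, reported to act as an androgen receptor cofactor, was at 10.02 and 9.42 against 10.28, 10.15 and 10.17. Its pull-down arrays were both lower but far apart, and the difference of -0.48 (SE 0.19) did not pass. Its second probe gave -0.35 (SE 0.07), and with both probes averaged RNF14 was called lower, at -0.41 (limma, Benjamini-Hochberg adjusted p = 0.0358). Without pull-down array 1 it was -0.78 (limma, Benjamini-Hochberg adjusted p = 0.0253).

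Membrane-anchored ligases had 4 of 16 members higher, RNF150, RNF122, RNF121 and RNF24, and 1 lower, RNF149, with a median of -0.06. Of all genes, 20.2% were higher and 15% lower. RNF122 was at 8.64 and 8.59 in the pull-down and 8.04, 8.05 and 8.03 in the mock. The 3 mock arrays were at the lower limit, so its difference of 0.57 (SE 0.06) may be compressed. The spread of its mock arrays (SD 0.01) may be compressed as well, which would favour a call. Neither was tested. RNF26, a ligase of the endoplasmic reticulum, was at 9.65 and 9.66 against 8.81, 8.82 and 9.41, and its difference of 0.64 (SE 0.21) did not pass. Mock array 3 was closer to the pull-down than to the other mock arrays, and without it RNF26 differed by 0.84 (limma, Benjamini-Hochberg adjusted p = 0.0108). Without mock array 2 the group had 1 higher call, RNF122, against 12.2% of all genes in that fit.

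Members linked to innate immunity had 4 of 13 higher, RNF135, TRIM5, TRIM68 and TRIM6, and 0 lower, with a median of 0.13. The shares of all genes were 20.2% higher and 15% lower. TRIM5 and TRIM6 are near each other in the genome and related in sequence. TRIM6 had a smaller difference, 0.27 (SE 0.07). TRIM8, a regulator of NF-kappaB signalling, was at 9.65 and 9.90 against 9.41, 9.21 and 8.86, with non-overlapping arrays, and its difference of 0.61 (SE 0.19) did not pass. TRIM25, another RIG-I ligase, had a difference of 0.13 (interval -0.12 to 0.38). Without mock array 3 this group had 1 higher call, the fewest, against 17% of all genes in that fit. With any other 1 array left out it also had fewer than 4.

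Of the COS-box, NHL and muscle TRIM genes 2 of 11 had a probe. TRIM2, a neuronal ligase, had a difference of 0.36 (SE 0.11), and TRIM9, a ligase of neuronal outgrowth, -0.31 (SE 0.14). Neither passed, although the arrays of each were apart, and TRIM2 was called without pull-down array 2. The 28 remaining genes had 8 higher calls and 1 lower call (20.2% and 15% of all genes). Besides RNF181, RNF115 and RNF34 the higher ones were RNF10, a ligase of ribosomal proteins (0.70, SE 0.13), RNF123, which degrades the cell cycle inhibitor p27 (0.61, SE 0.13), the centrosome regulator TRIM37 (0.56, SE 0.14), RNF44 (0.34, SE 0.05) and RNF41, a ligase of ErbB receptors (0.21, SE 0.05). Without mock array 1 there were 4 higher calls, 1 of them the newly called TRIM44, against 13.8% of all genes in that fit. Fewer than 8 were also higher without pull-down array 1.

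Some members outside the calls stood below 0. RNF7, a RING partner of cullins, was at 11.25 and 10.93 in the pull-down against 11.31, 11.73 and 11.67 in the mock. Pull-down array 1 was just below the lowest mock array and pull-down array 2 further below, and the difference of -0.48 (SE 0.17) did not pass. RNF126, a quality-control ligase, had the lowest difference but also the widest error, -0.76 (SE 0.42). Its second probe gave -0.10 (SE 0.11), and the mean of both probes -0.43, which is above the differences of RNF40 and RNF8. Its mock values were 9.47, 9.83 and 8.49 against 8.41 and 8.60 in the pull-down, and without mock array 3 it differed by -1.14 (limma, Benjamini-Hochberg adjusted p = 0.0197).

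Many of the transcripts were dim. Of the 73 genes, 48 had a mean log2 value under 9, and 11 had all 3 mock arrays within 0.1 of the array's lowest value. Of the 25 genes with a mean of at least 9, 9 were higher and 1 lower, against 21.5% higher and 24.9% lower among all 3831 genes at that level. Of the 48 dimmer genes, 12 were higher and 2 lower, against 19% and 6.1% of 4296 genes. Of the higher calls 4, RNF122, RNF44, RNF24 and RNF41, had all 3 mock arrays at the lower limit, with mock SDs of 0.004 to 0.03. Across the 73 genes the difference had a rank correlation of 0.05 with the mean level and 0.22 with the genomic span of the gene, introns included, beside -0.08 and 0.22 over all genes. These are correlations across genes of the same arrays, which are not independent replicates.

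**Figure D4:**
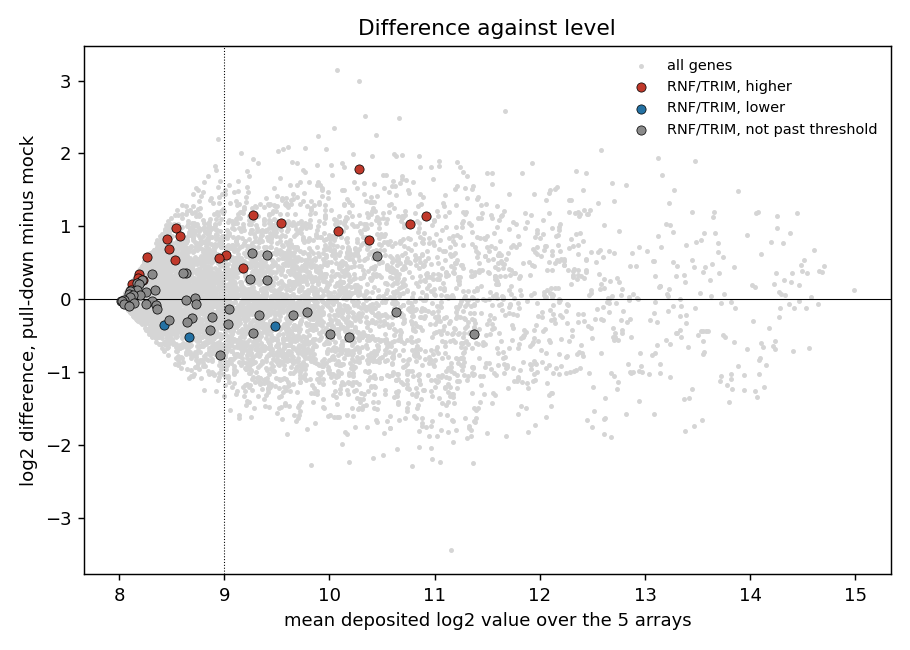
Log2 difference, pull-down minus mock (y axis), against the mean deposited log2 value over the 5 arrays (x axis) for all 8127 genes (light grey) and the 73 RNF and TRIM genes (red called higher, blue called lower, dark grey not past the threshold). The dotted line is a mean of 9. To its right 9 RNF and TRIM genes are called higher and 1 lower. To its left differences lie closer to 0 as values approach the lower limit near 8.

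The other tiers of the ubiquitin pathway were read from the same fit, in which 20.2% of all genes were higher and 15% lower. Of 23 measured E2 enzymes, 7 were higher and 1 lower, and their median was 0.21. UBE2G1, an E2 of endoplasmic reticulum degradation, had a difference of 1.61 (SE 0.33), a call lost when any 1 mock array was left out, and UBE2L6, an E2 for the ubiquitin-like ISG15, 1.35 (SE 0.11). HECT ligases, which carry ubiquitin on themselves, had 5 of 14 higher and 0 lower, with a median of 0.27, led by HUWE1 (1.41, SE 0.17) and the proteasome-associated UBE3C (1.30, SE 0.11). Other RING and U-box ligases had 17 of 59 higher and 3 lower, with a median of 0.15. They were led by BARD1, the partner of BRCA1 (2.08, SE 0.12), and LTN1, the ligase of stalled ribosomes (1.57, SE 0.21). Not every gene of this list is an established ligase on its own, VPS41, PCGF1 and PCGF2 among the higher calls included. MID1 and MID2 on it are TRIM proteins under other symbols. With both probes of a gene averaged, the differences were 0.71 for UBE2G1, 0.70 for UBE2L6 and 0.95 for LTN1, each still called.

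Of 6 E1 and ubiquitin genes 3 were measured, and 0 were called higher and 2 lower (20.2% and 15% of all genes). The main E1 gene, UBA1, was at 12.55 and 13.05 in the pull-down against 10.96, 11.71 and 12.16 in the mock. Both pull-down arrays were above all mock arrays, which were widely spread, and the difference of 1.19 (SE 0.40) did not pass (limma, Benjamini-Hochberg adjusted p = 0.0811). The polyubiquitin gene UBB had a difference of -1.04 (SE 0.10) and the E1 gene UBA6 -0.48 (SE 0.10), and the UBA6 call was lost without pull-down array 1 or 2 and without mock array 2. Without mock array 3 this list had 1 higher call, against 17% of all genes in that fit. With 1 array left out, 4 to 6 E2 enzymes were higher (4 without mock array 2 or pull-down array 1), as were 2 to 4 HECT ligases (2 without pull-down array 1) and 8 to 14 other RING and U-box ligases (8 without pull-down array 2). Over all genes the share called higher also fell below 20.2% with any 1 array left out. It was 13.8% without mock array 1, 12.2% without mock array 2 and 17% without mock array 3. With all arrays, the shares of higher calls in the RNF and TRIM genes (28.8%) and in the other RING and U-box ligases (28.8%) were alike. The difference between lists was not tested.

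Quantile normalization lowered the medians of several groups, to 0.04 in the RING-between-RING, -0.08 in the membrane-anchored and 0.03 in the innate immunity members and to 0.09 in the other RING and U-box ligases, with no change of sign. The median of the 2 COS-box and NHL members was 0.03 as deposited and changed sign, to -0.05 after quantile normalization and -0.01 with each array's median subtracted. Further probes were available for 10 of the 73 genes. Of 11 such probes, 9 had the sign of the probe used. The exceptions were the second probe of TRIM13, which gave 0.21 (SE 0.07) against -0.33 (SE 0.24), and a TRIM9 probe at the lower limit with 0.01 (SE 0.05). The other 63 genes rest on 1 probe each. RNF138, RNF216, RNF126 and some other members have at least 1 pseudogene under their name in RefSeq.

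Of the 24 called genes, 6 kept their call in every alternative that tested them: RNF138, RNF181, TRIM24, RNF135, RNF34 and RNF122. They are all higher in the pull-down. RNF135 and RNF122 have means under 9 and were not in the fit of genes with a mean of at least 9. RNF122 also had its mock arrays at the lower limit. None of the 3 lower calls was kept throughout.

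**Figure D5:**
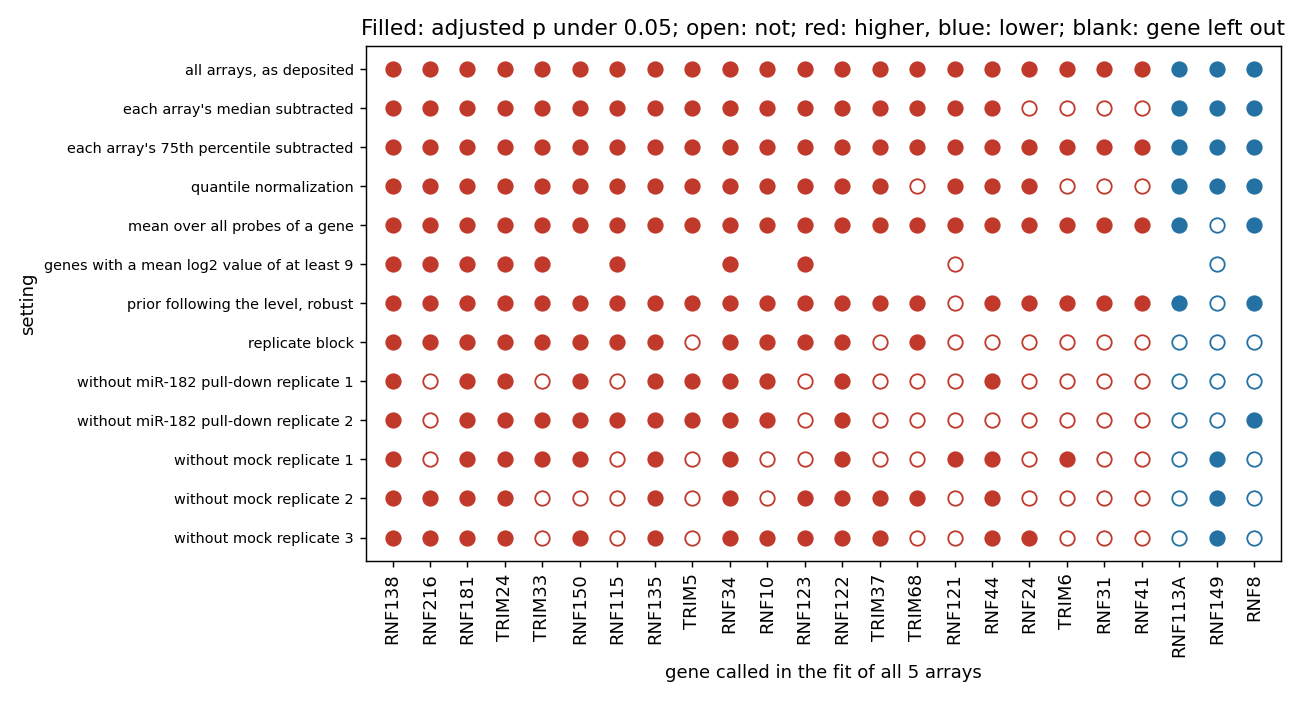
Calls of the 24 called RNF and TRIM genes (x axis) under each processing setting (y axis). A filled circle is a limma adjusted p under 0.05, an open circle is not, red is higher and blue lower in the pull-down, and a blank means that the setting left the gene out; RNF138, RNF181, TRIM24, RNF135, RNF34 and RNF122 have no open circle, and the 3 lower calls have several each.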

How the data were processed

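RNA of 5 samples was measured on Illumina expression arrays. The authors deposited log2 values for 11184 probes; the base was inferred from their range, and lumi 2.2.1 is listed, with no role, per the submitters' processing notes. How background, normalization and probe filtering were handled is not given in the sources used here; centring and the origin of the lower limit are unknown. The number of arrays limits the precision. A table of unnormalized signals was not used, because none of its 10 value columns matches a sample label.

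Probes were named by a platform annotation through Entrez identifiers: 10040 had 1 symbol, 1 several and 1143 none. Each of 8127 genes was represented by its brightest probe (mean of 5 arrays). The test was 2-sided, with group as covariate and no filter, by limma 3.58.1 (lmFit, eBayes; R 4.3.3), with Benjamini-Hochberg adjustment over all genes; 3 residual and 1.61 prior degrees of freedom. An exact permutation test of 1 gene over the 10 splits of the arrays could not go below p = 0.1. The fit was tested on simulated arrays with the means and residual SDs of these data. It called 14 of 50 genes shifted by 0.5, 32 of 50 shifted by 1 and 44 of 50 shifted by 2. Of 50 genes shifted by -1 it called 30, and 3 unshifted genes were called. Only 200 genes were shifted, so these shares need not hold here. A gene that did not pass may thus still have changed. Folds are 2 to the power of the difference.

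Members and gene lists were chosen with earlier results of these data known. Named with values in every array were the 10 largest calls in each direction with non-overlapping arrays (3 in the lower direction); also named were all chromatin and DNA damage members, up to 3 members of each other role list by size, and the 2 largest calls of each other pathway list. RNF7, RNF126, UBA1, TRIM25, TRIM6, TRIM13 and the smaller calls of each group were named after their values were seen. Alternatives were 3 other scalings, another probe rule, a level filter, another prior, a replicate block and leaving out each array.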

Additional observations from a re-analysis of the deposited data

How the results depend on the processing

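The counts of 21 higher and 3 lower RNF and TRIM genes stayed within 1.5 times under 3 other scalings, averaged probes and a level-dependent robust prior (17 to 28 higher, 3 lower), while 18.1% to 26.4% of all genes were higher and 14.7% to 18.8% lower in those fits. With genes of a mean of at least 9 alone, 25 members were tested, and 11 were higher and 0 lower, against 24.9% and 29.1% of all genes in that fit; fewer genes were tested there. Leaving out 1 array gave 10 to 15 higher and 1 to 3 lower calls and a median difference of 0.0823 to 0.110. Where a pull-down array was left out, the lone one was assumed to vary like the mock arrays. The median of 0.11 became 0.0663 with each array's median subtracted, 0.125 with its 75th percentile subtracted, 0.0294 after quantile normalization and 0.278 with genes of a mean of at least 9. The median of all genes was 0.0168 as deposited. In the same fits, in that order, it was -0.0236, 0.0351, -0.00259 and -0.0560. No called gene changed sign. The labels do not say whether same-numbered arrays were paired. Deviations from the group mean correlated with r = 0.04 and 0.12 in same-numbered arrays and with r = -0.12 and -0.04 in crossed ones. With 2 pull-down arrays the deviations of 1 mirror those of the other, so these values cannot settle the pairing. With the replicate number as a block, mock array 3 had no partner. In that fit 15 members were higher (13 of them among the 21) and 3 lower, with a median of 0.11. Over all genes 15.9% were higher and 13.9% lower in it. Of those 3 lower members, RNF126, RNF167 and RNF220, 0 were among the 3 lower calls of all arrays. Signal near the lower limit limits what can be seen for the 48 genes with a mean under 9.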

Other observations

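Mock array 3 lay apart from the other mock arrays in several RNF and TRIM genes, in either direction. It was lower for RNF126 (8.49 against 9.47 and 9.83) and for RNF220, a ligase of neural development (8.52 against 9.26 and 9.32). It was higher for RNF26 (9.41 against 8.81 and 8.82), TRIM28 (10.68 against 9.91 and 10.06) and RNF40 (11.01 against 9.87 and 10.31). Without it, RNF26 and TRIM28 were called higher and RNF126 and RNF220 lower, the last with a difference of -0.68 (limma, Benjamini-Hochberg adjusted p = 0.0137). RNF40 moved from -0.52 to -0.21 and did not pass. These genes were picked after their values were seen.

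RNF213, a very large ligase associated with moyamoya disease and induced by interferon, was at the lower limit in all 5 arrays (8.08, 8.003, 8.03, 8.07 and 8.03), as were RNF166, TRIM35 and RNF215. RNF215 was called lower with the level-dependent robust prior alone, at -0.06 (limma, Benjamini-Hochberg adjusted p = 0.0431), a difference between values at that limit.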
